A study of Mus musculus with 17 samples.

Results

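The mitochondrial ribosome genes examined here are the nuclear genes whose symbol starts with Mrpl (large subunit) or Mrps (small subunit) followed by a number. A gene was taken by its name on the array or its current symbol, where at least 1 of its probes was well above background in Cy5 on at least 8 of 17 arrays, and its brightest such probe stood for it. That gave 78 genes, 49 of the large subunit and 29 of the small, of 18133 genes tested and 27573 named on the array, and all 78 passed the filter. This rule used no measured difference between the diets, but the gene family was chosen with earlier results of these data known.

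The mitochondrial ribosome sits in the mitochondrial matrix and translates the few messenger RNAs that mitochondrial DNA encodes, which are core subunits of the respiratory chain and of ATP synthase. Its RNAs come from mitochondrial DNA, but its proteins are encoded in the nucleus, made in the cytosol and imported, so that a ribosome is built from products of both genomes. Some of the proteins descend from those of bacterial ribosomes and others are found in mitochondria alone. In white adipose tissue, mitochondria supply the energy and the acetyl and glycerol precursors for making fat, and their activity is known to be lower in obesity.

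The tissue was the epididymal white fat pad of adult male wild-type C57BL/6J mice fed for 13 weeks on a purified high-fat diet with 30% of its energy as fat. The carbohydrate of that diet had a high glycemic index (HGI, 9 mice) or a low one (LGI, 8 mice), and both groups shared the fat content, so neither is a lean control. The RNA of each mouse was labelled with Cy5 and hybridized against a Cy3-labelled pool of the RNA of all HGI and LGI mice. Each value is the log2 ratio of Cy5 to Cy3, relative to that pool, and a difference is the HGI mean minus the LGI mean on that scale. A ratio of 0 is not the average of these mice for every gene. The mean of 6 epididymal genes lay between -4.23 and -3.59 in every mouse, and the reason was not tested. The labels give replicate numbers and no cage or litter, so a p-value here reflects only how much these mice differed among themselves. The whole fat pad was used, so fewer cells of a type and less RNA per cell cannot be told apart. The mice numbered HGI 9 and HGI 10 carried a strong signal of seminal vesicle genes and stood apart over the whole array, and the members are also given without them.

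The promoters of 5 of the genes, from RefSeq on build GRCm38.p6, are shown for the members that the results turn on. Each window runs 5′ to 3′ in the direction of the gene, from 250 bases before its start to 50 after it. Mrps15 had the lowest p of all members and Mrpl40 the lowest p among those higher in HGI. Mrps12 and Mrps11 each start back to back with another gene of mitochondrial translation, and Mrps18a stood out in 2 of the mice, as given with the values of HGI 9 and HGI 10. The windows are chr4:126046678-126046977, plus strand for Mrps15, chr16:18876588-18876887, minus strand for Mrpl40, chr7:28741772-28742071, minus strand for Mrps12, chr7:78782881-78783180, plus strand for Mrps11 and chr17:46110754-46111053, plus strand for Mrps18a. Capitals mark matches on either strand to 5 motifs: CGCATGCG (the core bound by NRF1), CCGGAAG (the ETS core that GABP binds), AAGATGGCG (bound by YY1), GGGCGG (the GC box bound by Sp1) and CACGTG (the E-box).
Mrps15: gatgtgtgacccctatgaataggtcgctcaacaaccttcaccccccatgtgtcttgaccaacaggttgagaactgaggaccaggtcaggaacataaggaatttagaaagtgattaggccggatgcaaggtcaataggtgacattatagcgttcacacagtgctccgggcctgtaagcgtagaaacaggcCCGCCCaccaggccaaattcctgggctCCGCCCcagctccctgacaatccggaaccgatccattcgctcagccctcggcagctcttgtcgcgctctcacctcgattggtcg
Mrpl40: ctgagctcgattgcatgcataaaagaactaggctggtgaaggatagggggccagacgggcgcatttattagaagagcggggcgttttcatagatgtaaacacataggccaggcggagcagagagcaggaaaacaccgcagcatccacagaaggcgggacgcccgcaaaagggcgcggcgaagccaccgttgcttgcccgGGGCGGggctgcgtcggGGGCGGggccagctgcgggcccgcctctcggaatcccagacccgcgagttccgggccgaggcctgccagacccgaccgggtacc
Mrps12: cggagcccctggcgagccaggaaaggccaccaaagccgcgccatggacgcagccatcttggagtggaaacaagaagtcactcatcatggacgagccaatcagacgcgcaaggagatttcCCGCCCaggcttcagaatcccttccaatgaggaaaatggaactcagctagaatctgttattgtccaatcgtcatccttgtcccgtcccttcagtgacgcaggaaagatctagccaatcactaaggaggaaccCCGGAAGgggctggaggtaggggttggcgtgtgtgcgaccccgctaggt
Mrps11: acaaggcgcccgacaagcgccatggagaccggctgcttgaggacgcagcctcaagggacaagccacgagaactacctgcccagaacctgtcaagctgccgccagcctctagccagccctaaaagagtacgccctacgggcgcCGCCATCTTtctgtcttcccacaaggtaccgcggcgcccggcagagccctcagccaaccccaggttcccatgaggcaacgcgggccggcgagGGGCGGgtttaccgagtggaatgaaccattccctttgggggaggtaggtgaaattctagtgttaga
Mrps18a: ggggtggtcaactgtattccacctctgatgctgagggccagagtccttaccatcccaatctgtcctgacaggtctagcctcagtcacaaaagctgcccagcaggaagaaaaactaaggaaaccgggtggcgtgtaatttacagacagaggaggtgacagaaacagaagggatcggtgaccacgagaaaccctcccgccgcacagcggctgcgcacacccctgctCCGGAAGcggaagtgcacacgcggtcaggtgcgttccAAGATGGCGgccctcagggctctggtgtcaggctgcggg
The Mrps15 and Mrpl40 windows each held 2 GC boxes and none of the other motifs. Mrps12 and Mrps18a each held 1 ETS core, and Mrps11 and Mrps18a each held 1 match to the YY1 motif.

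A promoter window was found for 69 of the 78 genes, and 66 had exactly 1, which were searched beside the single windows of 9571 tested genes. The ETS core was present in 24 of the 66 (36.4%), against 15.7% of all windows searched. The YY1 motif was present in 8 of 66 (12.1%), against 2.9% of all windows. The NRF1 core was present in 7 of 66 (10.6%), against 3.28%. The GC box (31 of 66, 47%, against 57.5%) and the E-box (4 of 66, 6.06%, against 9.48%) had shares below those of all windows. The GC content was close, with a median of 58% in the members and 59.3% in all. The median diet difference was 0.056 for the 24 members with an ETS core and -0.004 for the members without. It was 0.050 for the 8 with the YY1 motif and 0.024 without, and -0.027 for the 7 with the NRF1 core and 0.039 without. For the 4 with an E-box it was 0.055, against 0.024 without, and for the 31 with a GC box 0.022, against 0.039 without. These medians are descriptions of the lists, and a match to a motif does not show that a factor binds there.

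No member differed between HGI and LGI at an adjusted p under 0.05 (limma, Benjamini-Hochberg over all 18133 genes). That rule called 0% of all genes tested. At an unadjusted p under 0.05, 3 members were higher in HGI, Mrpl40, Mrpl15 and Mrpl52, where 3.97% of all genes were, and 1, Mrps15, was lower, where 3.77% of all genes were. The members' 3 of 78 and 1 of 78 are thus close to or below the share of genes at large. By sign alone, 47 members were higher and 31 lower in HGI, and 52.6% of all genes were higher. The median difference was 0.032 over the members, against 0.006 over all genes. The members' differences ran from -0.24 to 0.22, and none exceeded 0.25 in size, a 1.19-fold difference, which 4.38% of all genes did.

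The arrays were precise enough to bound the differences of the probes that stood for the genes. The 95% interval of every one of these 78 lay inside ±0.5 log2 units, which is 1.41-fold in either direction. The outermost ends were -0.42 (Mrps15) and 0.43 (Mrpl52). The bound does not cover the other probes of a gene. A second probe of Mrps30, well above background on 13 arrays, gave 0.39 ± 0.21, against -0.04 for the probe used. Over all genes, 94.4% had an interval inside that bound. The median standard error was 0.069 for the members and 0.081 for all genes, and the median SD between mice of 1 diet was 0.135 and 0.167. The measured probe was well above background on all 17 arrays for 77 of the 78, the exception being Mrps18b, which missed it in 1 HGI mouse. No member had a saturated spot or a missing value.

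**Figure D1:**
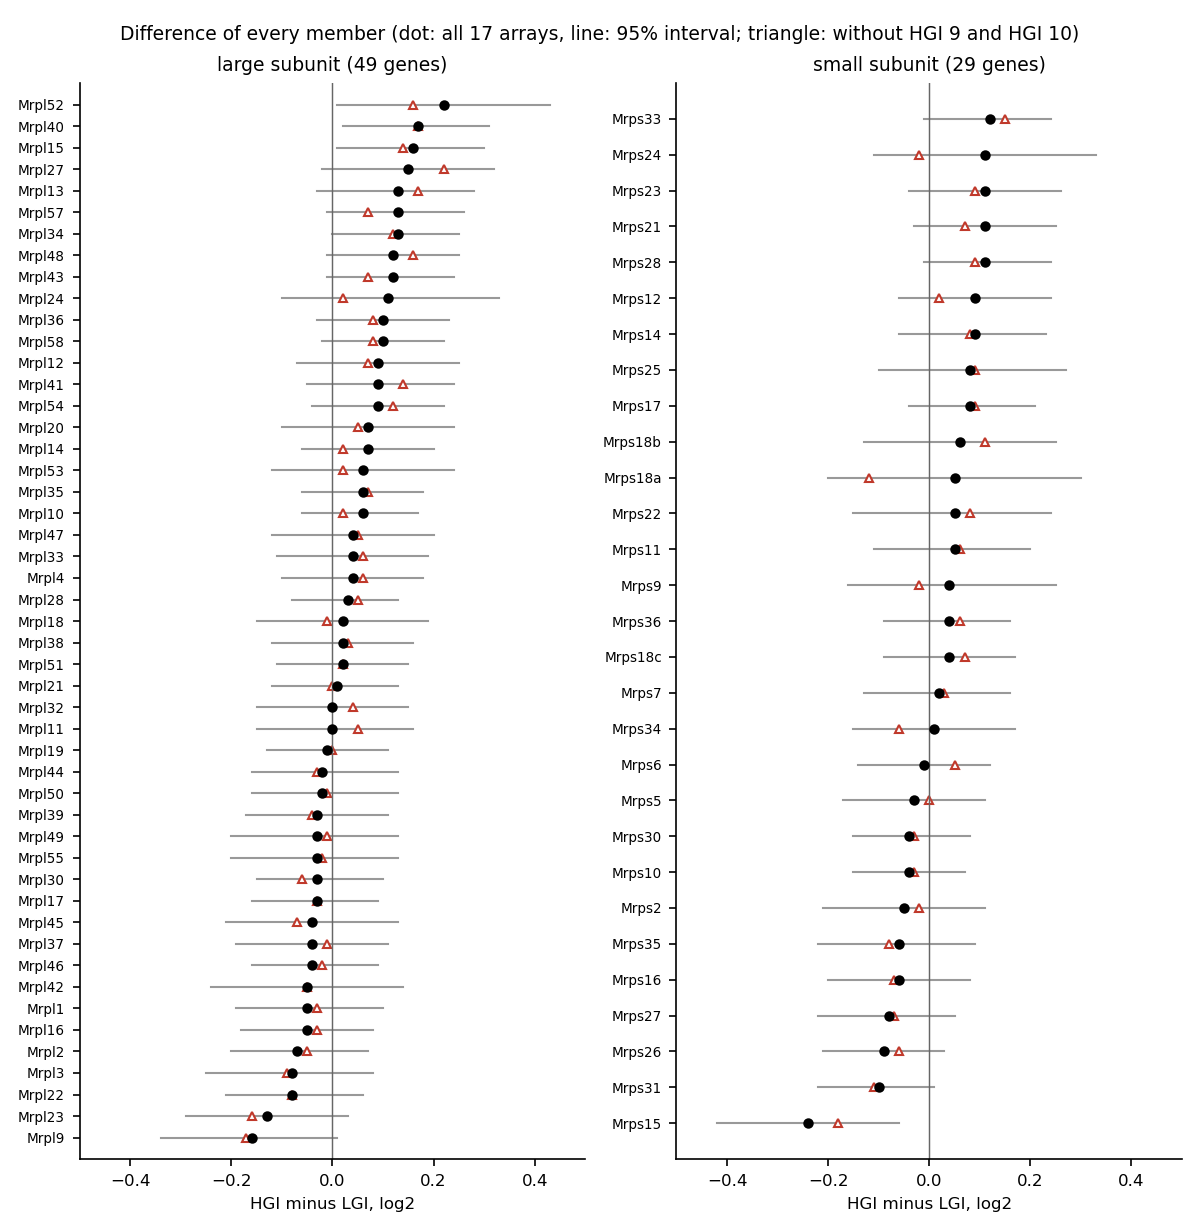
HGI minus LGI difference (log2, x axis) of each of the 49 large-subunit and 29 small-subunit genes, sorted. Dots are the differences over all 17 arrays, lines their 95% intervals and triangles the differences without HGI 9 and HGI 10; all lines lie between -0.42 and 0.43.

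Mrps15, the counterpart of bacterial S15, a protein that binds the small-subunit RNA early in assembly, had the largest difference in size. Its log ratio ran from -0.52 to 0.22 with a median of -0.10 in the 9 HGI mice, and from -0.11 to 0.42 with a median of 0.09 in the 8 LGI mice. In 8 of 9 HGI mice it lay below the LGI median, and the groups overlapped. The difference was -0.24 ± 0.09 (SE), with an unadjusted p of 0.0108 and an adjusted p of 0.553 in limma. It was -0.22 within the first 8 arrays scanned and -0.26 within the later 9. HGI 10 was the lowest mouse, and without HGI 9 and HGI 10 the difference was -0.18. A second, dimmer probe of the gene gave -0.12.

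Mrpl40, a mitochondria-specific protein of the large subunit whose human gene lies in the region lost in DiGeorge syndrome, was the leading gene on the other side. It ran from 0.02 to 0.24 with a median of 0.18 in HGI mice, and from -0.18 to 0.27 with a median of -0.12 in LGI mice. All 9 HGI mice lay above the LGI median, but 3 LGI mice lay within or above the range of the HGI mice, so the groups overlapped. The difference was 0.17 ± 0.07, with an unadjusted p of 0.0294 and an adjusted p of 0.604 in limma. Its other probes gave 0.12 and 0.02.

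Mrpl15, the counterpart of bacterial L15, ran from -0.06 to 0.26 with a median of 0.11 in HGI mice and from -0.33 to 0.19 with a median of -0.09 in LGI mice. All 9 HGI mice lay above the LGI median, and the ranges overlapped. The difference was 0.16 ± 0.07 (unadjusted p = 0.037, adjusted p = 0.625 in limma), but it was 0.28 within the first 8 arrays scanned and 0.04 within the later 9. A second probe, matched to another transcript and well above background on 11 arrays, gave -0.17, and in the authors' deposited values the gene, represented there by the brightest probe they list, gave -0.12. The sign for Mrpl15 therefore turns with the probe.

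Mrpl52, another mitochondria-specific protein of the large subunit, ran from -0.55 to 0.13 with a median of -0.36 in HGI mice and from -0.81 to -0.24 with a median of -0.52 in LGI mice. The groups overlapped between -0.55 and -0.24, and HGI 6, HGI 9 and HGI 10 were the highest mice. The difference was 0.22 ± 0.10 (unadjusted p = 0.0422, adjusted p = 0.634 in limma), and 0.16 without HGI 9 and HGI 10. It was 0.08 within the first 8 arrays scanned and 0.34 within the later 9. Its other tested probes gave 0.02 and -0.11.

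**Figure D2:**
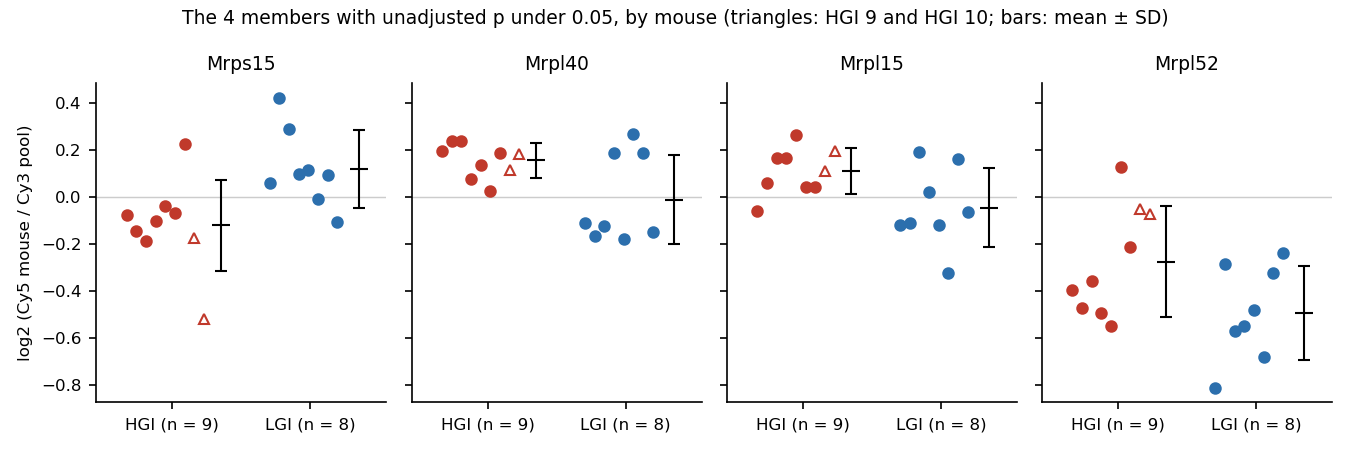
Log2 ratio of Cy5 (each mouse) to Cy3 (the pool) for Mrps15, Mrpl40, Mrpl15 and Mrpl52, with 1 point a mouse, HGI (n = 9) left of LGI (n = 8), triangles for HGI 9 and HGI 10, and mean ± SD bars. The diets overlap in every panel, and Mrps15 is the 1 gene whose HGI points sit mostly below those of LGI.

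Other members at the top of the list by p were small in size. On the higher side, Mrpl34, the counterpart of bacterial L34, differed by 0.13 ± 0.06, Mrps33 by 0.12 ± 0.06 and Mrpl43 by 0.12 ± 0.06. Their p values in limma were 0.0569, 0.0597 and 0.0714 unadjusted and lay between 0.656 and 0.668 adjusted. Mrps33 and Mrpl43 are mitochondria-specific proteins. Mrps33 ran from -0.02 to 0.35 in HGI mice and from 0.03 to 0.23 in LGI mice. All 3 of its tested probes gave positive differences, 0.12, 0.12 and 0.07, and so did both probes of Mrpl43, 0.12 and 0.13.

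On the lower side, Mrpl9, the counterpart of bacterial L9, differed by -0.16 ± 0.08 (unadjusted p = 0.068, adjusted p = 0.668 in limma). It ran from -0.29 to 0.03 in HGI mice and from -0.42 to 0.29 in LGI mice, with all 9 HGI mice below the LGI median of 0.15 and the lowest mouse of all in LGI. The difference was -0.07 within the first 8 arrays scanned and -0.25 within the later 9, and its sign turned in the authors' deposited values, which gave 0.05. Mrps31, known in humans as an islet autoantigen, differed by -0.10 ± 0.06, and Mrpl23, whose bacterial counterpart lies at the exit of the protein tunnel, by -0.13 ± 0.08. Mrps26 differed by -0.09 ± 0.06 and Mrps27, a protein with pentatricopeptide repeats, by -0.08 ± 0.07. For Mrps26, HGI 10 alone stood at -0.25, and the other 8 HGI mice lay between 0.02 and 0.13. Having all 9 HGI mice on 1 side of the LGI median was found in 4 of 78 members, above it for Mrpl40 and Mrpl15 and below it for Mrpl9 and Mrps26. Over all genes 1.8% lay wholly above and 2.33% wholly below.

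Several members are known for roles of their own. Mrpl12, part of the stalk that recruits translation factors and a reported partner of the mitochondrial RNA polymerase, differed by 0.09 ± 0.08. Mrps12, the counterpart of S12 in the decoding centre, differed by 0.09 ± 0.07, or 0.02 once HGI 9 and HGI 10 were left out. Mrpl11, which helps form the site where translation factors hydrolyse GTP, differed by 0.00 ± 0.07. Mrpl58, a peptidyl-tRNA hydrolase that frees stalled ribosomes and is listed on the array under its older name Ict1, differed by 0.10 ± 0.06. Mrpl41, reported to act in apoptosis besides its place in the ribosome, differed by 0.09 ± 0.07, and Mrps36, which is now known as a subunit of 2-oxoglutarate dehydrogenase, by 0.04 ± 0.06.

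Mutations in a further group cause respiratory chain deficiency in humans, and these genes were near 0. Mrpl3 differed by -0.08 ± 0.08, Mrpl44 by -0.02 ± 0.07, Mrps16 by -0.06 ± 0.07, Mrps2 by -0.05 ± 0.07 and Mrps22 by 0.05 ± 0.10. Their unadjusted p values in limma lay between 0.292 and 0.829. Mrps22 ran from -0.26 to 0.12 in HGI mice and from -0.67 to 0.12 in LGI mice, where LGI 2 alone stood at -0.67. Its difference was 0.25 within the first 8 arrays scanned and -0.15 within the later 9.

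The large and small subunits, split by symbol, had medians close to each other. The median difference was 0.022 over the 49 large-subunit genes and 0.039 over the 29 small-subunit genes. Among large-subunit genes 29 were higher and 20 lower in HGI, and 3 were higher and 0 lower at an unadjusted p under 0.05. Among small-subunit genes 18 were higher and 11 lower, with 0 higher and 1 lower at that p. The mean over the large-subunit genes ran from -0.04 to 0.07 in HGI mice and from -0.07 to 0.02 in LGI mice. The mean over the small-subunit genes ran from -0.05 to 0.08 in HGI mice and from -0.07 to 0.08 in LGI mice. The large-subunit mean minus the small-subunit mean was -0.02 ± 0.03 in HGI mice (SD, n = 9) and -0.03 ± 0.03 in LGI mice (SD, n = 8). It lay below 0 in 6 of 9 HGI and 8 of 8 LGI mice. Every mouse was in Cy5 and the pool in Cy3, so 0 is set by that pool and labelling. The offset from 0 is therefore no measure of the balance of the subunits, and it was not tested.

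**Figure D3:**
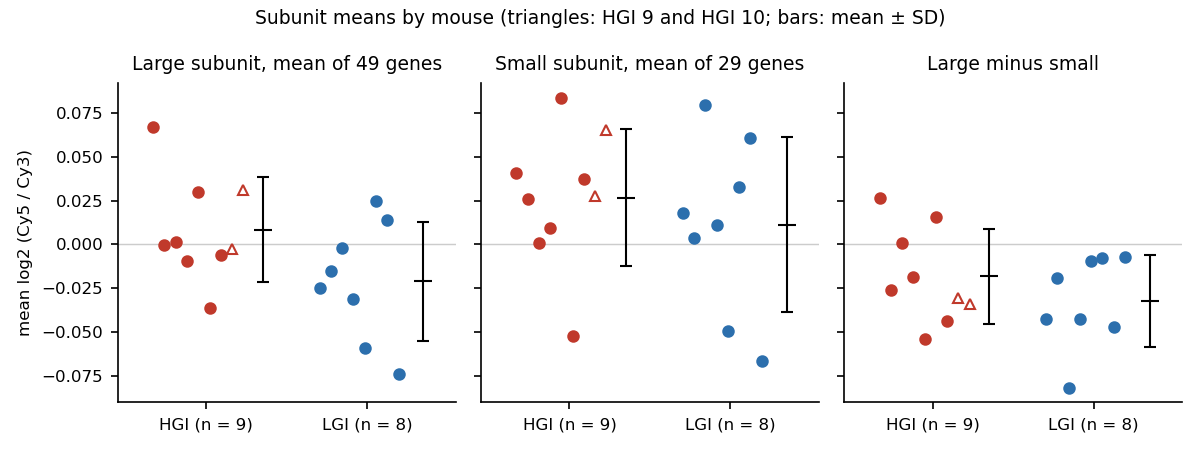
Mean log2 ratio of the 49 large-subunit genes, of the 29 small-subunit genes, and the first minus the second, in each mouse, with HGI (n = 9) left of LGI (n = 8), triangles for HGI 9 and HGI 10, and mean ± SD bars. The diets overlap in all panels, and all points lie between -0.08 and 0.08.

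Pairs of members correlated little over the mice. After the diet means were removed, the mean correlation between pairs of members over the 17 mice was 0.0574 (Pearson) and 0.0647 (Spearman), given as a description, since all pairs share the same arrays. The same mean was 0.0025 over all genes, 0.178 over complex I, 0.421 over complex III and 0.557 over cytosolic ribosomal proteins. Without HGI 9 and HGI 10 it was 0.073 over the members and 0.245 over cytosolic ribosomal proteins. The SD between mice of 1 diet ran from 0.0737 to 0.268 over the members.

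The neighbours of these genes were also examined. Of the 69 members with a promoter window, 26 (37.7%) start head to head with another gene at most 1000 bases away, against 16.6% of 11806 tested genes with a window. Mrps12 starts 147 bases from Sars2, the mitochondrial seryl-tRNA synthetase, on the other strand, and the differences were 0.09 for both. Without HGI 9 and HGI 10 they were 0.02 for Mrps12 and 0.06 for Sars2. Mrps11 and Mrpl46 start 42 bases apart, with differences of 0.05 and -0.04. Mrpl40 starts 113 bases from Hira, a histone chaperone gene, with differences of 0.17 and 0.18 (unadjusted p for Hira 0.0507 in limma). Mrpl43 starts 116 bases from Twnk, the mitochondrial DNA helicase, with differences of 0.12 and -0.11. The sign was shared with the partner in 11 of the 23 members whose partner was tested. Mrps11 and Mrpl46, each the partner of the other, both count among the 23. The like share over all head-to-head genes was not computed.

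The rest of the mitochondrial gene expression machinery was set beside the members. Of the 5 mitoribosomal proteins with other names, Dap3, Ptcd3, Chchd1, Aurkaip1 and Gadd45gip1, 4 were higher and 1 lower in HGI, with a median of 0.023 and differences from -0.06 (Aurkaip1) to 0.07 (Chchd1). Of 25 assembly factors measured, 9 were higher and 16 lower, with a median of -0.024. The assembly GTPase Mtg2 had an unadjusted p under 0.05 on the higher side (0.18 ± 0.08), and the mitochondrial ribosome biogenesis factor Mterf3 differed by -0.22 ± 0.11 and the rRNA methyltransferase Tfb1m by 0.12 ± 0.06. Of 16 translation factors, 8 were higher and 8 lower, with a median of -0.001, and the elongation factor Guf1 was lower at -0.11 ± 0.05. The release factor Mtrf1l differed by 0.12 ± 0.07 and the initiation factor Mtif2 by -0.08 ± 0.06.

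Of 17 mitochondrial aminoacyl-tRNA synthetases, 10 were higher and 7 lower, with a median of 0.011. Kars, which also serves the cytosol, stood at 0.20 ± 0.08 and Vars2 at -0.17 ± 0.07. Of 14 genes that copy and transcribe mitochondrial DNA, 4 were higher and 10 lower, with a median of -0.054. Lrpprc, which stabilises mitochondrial messenger RNAs, stood at -0.19 ± 0.08, Mgme1, a mitochondrial DNA exonuclease, at -0.13 ± 0.06 and Twnk at -0.11 ± 0.08. Of 10 nuclear regulators of mitochondrial genes, 3 were higher and 7 lower, with a median of -0.080. Ppargc1b, a coactivator of mitochondrial biogenesis, stood at -0.31 ± 0.10 (unadjusted p = 0.00354, adjusted p = 0.522 in limma), Myc at 0.18 ± 0.10 and Esrra, its nuclear receptor partner, at -0.17 ± 0.10. No gene of these lists passed an adjusted p of 0.05 in limma.

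The genes for the respiratory chain and ATP synthase, into which the products of the mitochondrial ribosome are built, had a median on the other side of 0. Over 77 nuclear genes of complexes I, III and IV and ATP synthase, 29 were higher and 48 lower in HGI, with a median of -0.023. That median was -0.001 within the first 8 arrays scanned and -0.057 within the later 9. Their mean was 0.13 in LGI 2 and 0.14 in LGI 4. It ran from -0.05 to 0.05 in the other LGI mice and from -0.06 to 0.06 in HGI mice. At an unadjusted p under 0.05, 1 of the 77 was higher and 12 were lower, where 3.97% and 3.77% of all genes were. The members had 3 higher and 1 lower. Among the 12 were Atp5g3 (-0.29) and Uqcrc2 (-0.21). The mean correlation between pairs of the 77 over the mice was 0.154, so these calls are not independent of one another. Without HGI 9 and HGI 10, 2 of the 77 were higher and 5 lower at that p, where 5.04% and 2.75% of all genes were. The median was then -0.030, with 27 higher and 50 lower. None passed an adjusted p of 0.05 in limma, and the difference between these 77 genes and the members was not tested. The 81 cytosolic ribosomal proteins and their close paralogs had a median of 0.072, with 65 higher and 16 lower. Without HGI 9 and HGI 10 that median was -0.040.

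**Figure D4:**
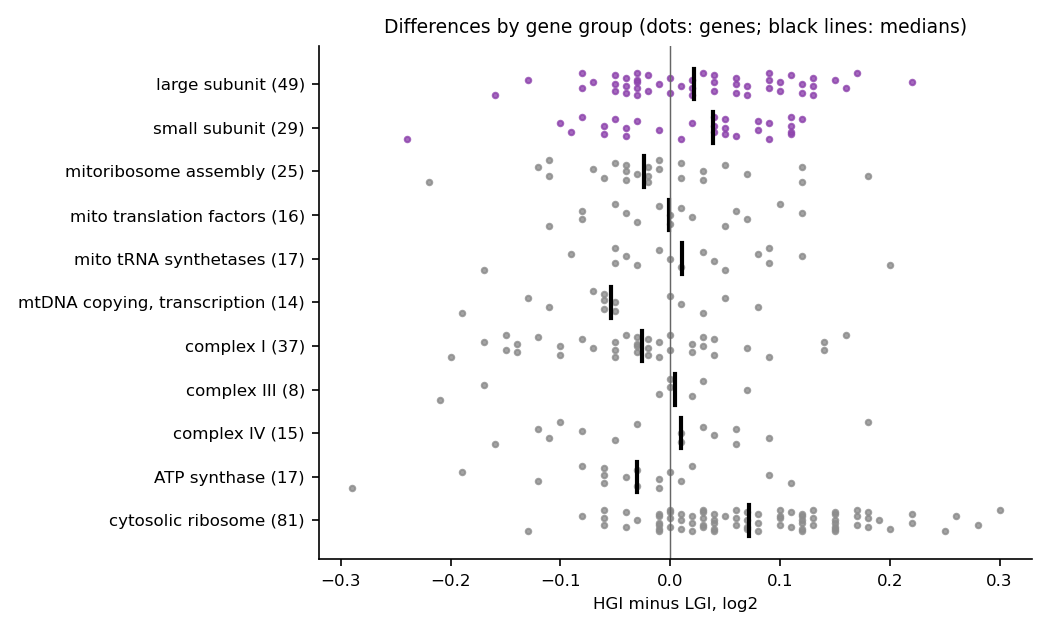
HGI minus LGI difference (log2, x axis) of single genes (dots) in groups of the mitochondrial and cytosolic machinery, with the number of genes in brackets and the median as a black line. The large-subunit and small-subunit medians are 0.022 and 0.039. Complex I lies at -0.026, complex III at 0.004, complex IV at 0.010, ATP synthase at -0.030 and the cytosolic ribosome at 0.072.

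HGI 9 and HGI 10 stood apart from the other 15 mice over the whole array, with a correlation of 0.808 between the pair, of -0.0473 to 0.144 between either and another mouse, and of 0.374 to 0.831 among the rest. Their 7 measured seminal vesicle genes averaged 1.59 and 1.58, against -4.28 to -3.98 in the other 7 HGI mice and -4.30 to -3.93 in LGI mice. Mrps18a, 1 of 3 genes related to bacterial S18, was the member furthest out in them. It stood at 0.67 in HGI 9 and 0.61 in HGI 10, and between -0.27 and 0.09 in all other mice. Mrps24 stood at 0.60 in each, and between -0.29 and 0.25 in all other mice. Neither gene shows this in any other HGI mouse, and the part of the seminal vesicle signal in it was not tested.

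In all, both mice lay above the range of the other 15 for 8 members, Mrpl10, Mrpl14, Mrpl24, Mrpl43, Mrpl57, Mrps12, Mrps18a and Mrps24, and below it for 1, Mrps6. That is 11.5% of the members, against 16.4% of all genes with a value on every array. Mrps6 stood at -0.23 in HGI 9 and -0.21 in HGI 10, and between -0.07 and 0.20 in the others. For Mrps18b and Mrps18c, the paralogs of Mrps18a, HGI 9 and HGI 10 were not both outside the range of the others, and the diet differences were 0.06 ± 0.09 and 0.04 ± 0.06.

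**Figure D5:**
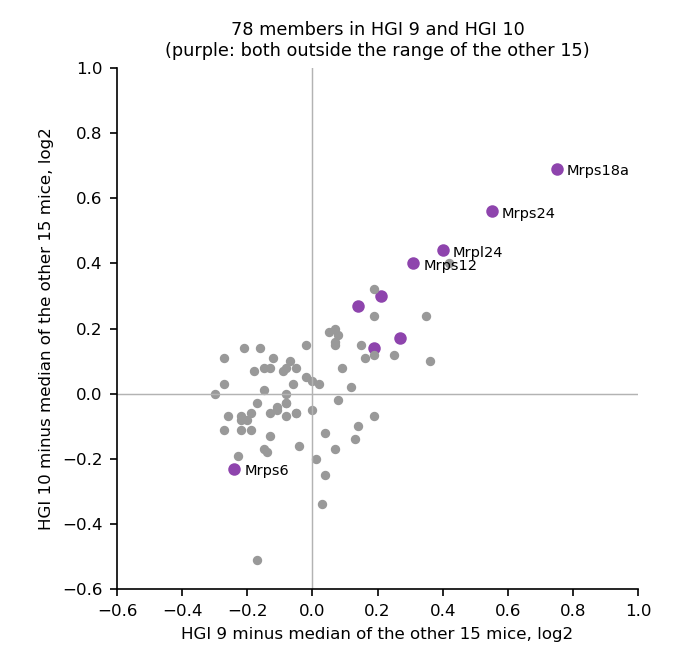
Log2 ratio of each of the 78 members in HGI 9 (x axis) and HGI 10 (y axis), each minus the median of the other 15 mice. Purple points are the 9 members with both mice outside the range of the others; Mrps18a lies at 0.75 and 0.69 and Mrps24 at 0.55 and 0.56.

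Leaving out HGI 9 and HGI 10 moved single genes more than the whole. The median over the members was then 0.021, with 44 higher and 34 lower. The difference of Mrps18a was -0.12 without them, against 0.05 ± 0.12 with them, and that of Mrps24 was -0.02, against 0.11 ± 0.11. At an unadjusted p under 0.05, 6 members were then higher, Mrpl27, Mrpl48, Mrps33, Mrpl13, Mrpl40 and Mrpl41, where 5.04% of all genes were, and 1, Mrps15, was lower, where 2.75% of all genes were. Mrpl27, the counterpart of bacterial L27 near the peptidyl transferase centre, had the lowest p of these, with a difference of 0.22 without the 2 mice (unadjusted p = 0.00878 in limma) and 0.15 ± 0.08 with them. None passed an adjusted p of 0.05 in limma.

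The members' median differed with the order of scanning. It was 0.064 within the first 8 arrays scanned, 4 HGI and 4 LGI, and -0.008 within the later 9, 5 HGI and 4 LGI. The 10th percentile of Cy5 brightness was 128 to 148 in the first 8 and 100 to 116 in the later 9. Of the 78 members, 51 (65.4%) had the same sign in both, against 60.8% of all genes. Mrpl40 (0.23 and 0.11), Mrps33 (0.12 and 0.11) and Mrps15 (-0.22 and -0.26) were among those.

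Probes of a gene did not always share a sign. Of the 31 members with more than 1 tested probe, 19 (61.3%) had tested probes on both sides of 0, against 47% of 5406 genes of that kind. Mrpl15, Mrpl52, Mrpl3, Mrpl44, Mrps2, Mrps18b and Mrps18c were among the 19, while all tested probes gave 1 sign for Mrpl40, Mrpl43, Mrps33 and Mrps26.

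Markers of the cells in the fat pad were measured on the same arrays. The 12 adipocyte genes had a median difference of -0.184, with 11 of 12 lower in HGI and 3 at an unadjusted p under 0.05, and all 12 passed the filter on background. Their mean ran from -0.31 to 0.02 in HGI mice, or from -0.13 to 0.02 without HGI 9 and HGI 10. Among LGI mice it was -0.26 in LGI 9 and ran from 0.02 to 0.19 in the others. LGI 9 also stood at 0.96 for the mean of 3 ciliated cell genes, against -0.39 to 0.17 in all other mice. Without these 2 mice the median was -0.154 and 1 gene had that p, and the median was -0.054 within the first 8 arrays scanned and -0.252 within the later 9. The 12 macrophage genes had a median of 0.124, with 11 of 12 higher and 3 at that p, and a mean from -0.12 to 0.44 in HGI mice and from -0.24 to 0.01 in LGI mice. Their median was 0.157 without HGI 9 and HGI 10, 0.020 within the first 8 arrays and 0.167 within the later 9. The 6 mesothelium genes had a median of -0.216, with 6 of 6 lower and 4 at that p, and of -0.209 without HGI 9 and HGI 10, with 3 at that p. Their mean ran from -0.34 to 0.41 in HGI mice and from -0.04 to 0.54 in LGI mice. The medians were -0.065 over 6 endothelium genes, 0.057 over 7 fibroblast genes and 0.098 over 4 brown fat genes, with 1 endothelium gene lower at that p. Without HGI 9 and HGI 10 they were 0.029, 0.125 and 0.173, so that of endothelium turned sign. At that p, 1 endothelium gene was then lower, and 2 fibroblast genes and 1 brown fat gene were higher. Of the 6 brown fat genes listed, Ucp1 and Elovl3 were not among the genes tested. Cox7a1 and Cox8b are also in the complex IV list. Of all genes, 3.97% were higher and 3.77% lower at that p, or 5.04% and 2.75% without the 2 mice. None of the marker genes passed an adjusted p of 0.05 in limma, and the part of these lists in the members' values was not tested.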

How the data were processed

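Epididymal white fat of 17 mice (9 HGI, 8 LGI) was hybridized on 17 Agilent 2-colour arrays, each mouse in Cy5 against a Cy3 pool, from 500 ng of RNA per mouse, per the labels' protocols. The deposited scanner files hold spot intensities and quality flags written by Agilent Feature Extraction, version 9.1.3.1 per the file headers and 9.5.1.1 per the submitters' processing notes. The log2 values that the authors deposited for 19836 probes have column medians of 8.329 to 8.331 and follow the Cy5 levels (r of 0.979 to 0.986). Deviations in these values correlated at 0.426 to 0.846 with the log ratio. With Cy3 they correlated at -0.188 to 0.0604, so the direction of these values was taken as that of Cy5. Neither their centring nor their normalization is given in any source used here, and they served as an alternative only.

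Background was corrected by normexp (offset 50) and log ratios were normalized by loess within each array in limma 3.58.1 (R 4.3.3, data.table version 1.17.8), with control and flagged spots at weight 0. Spots of a probe were averaged, and probes were named through RefSeq names of GRCm38.p6. Genes with a probe well above background on at least 8 arrays were tested by lmFit and eBayes, with Benjamini-Hochberg adjustment over all 18133 and a threshold of 0.05. The fit was tested on simulated data. Plots were made with Python 3.11.15 and matplotlib 3.10.9. Precision is limited by the number of arrays.

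The members and gene lists were chosen with earlier results of these data known. The lists taken by the start of their symbols leave out complex I assembly factors, S6 kinases and Rps19bp1, whose symbols also match. Named were the members with an unadjusted p under 0.05, filled to 6 in each direction by p, 14 members with a role of their own, and up to 3 genes of smallest p in each list of mitochondrial gene expression. Of the respiratory chain, 2 genes were named after their values were seen, and so were the members in which HGI 9 and HGI 10 stood apart, those called without these mice and the head-to-head partners. The labels do not say whether replicate numbers pair the samples, and the main fit used no pairing. Same-numbered HGI and LGI mice (7 pairs) had deviations that correlated at -0.379 to 0.261, and only 3 pairs were over 0.1. So few pairs cannot exclude a pairing. Alternatives covered the scan order, the normalization, the background, the probe choice, the filter, array weights and each left-out array.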

Additional observations from a re-analysis of the deposited data

Results flagged for a closer look

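In each diet group, a mouse was marked where its gap to the nearest other mouse was large for the range of its group (Dixon's test at its 95% critical value). This was run for the 78 members and for 4 means over members in each diet, 164 groups in all, of which 10 were marked. Chance alone marks about 1 in 20, and no mean over members was among them.

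Among the HGI mice, Mrps26 stood at -0.25 in HGI 10, below 0.02 to 0.13 in the others. Mrps17, the counterpart of bacterial S17, stood at 0.36 in HGI 6, above 0.06 to 0.19 in the others, and Mrpl51 at -0.37 in HGI 7, below -0.18 to 0.02.

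Among the LGI mice, LGI 4 was the highest for 3 members, Mrpl19 (0.01, against -0.32 to -0.17 in the others), Mrpl58 (0.07, against -0.21 to -0.08) and Mrps18c (0.19, against -0.18 to -0.02). Mrpl42 stood at 0.79 in LGI 7, above 0.10 to 0.30. Mrps22 stood at -0.67 in LGI 2, below -0.21 to 0.12, Mrpl55 at -0.50 in LGI 5, below -0.16 to 0.05, and Mrps7 at -0.14 in LGI 9, below 0.10 to 0.28.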

How the results depend on the processing

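No alternative brought a member past an adjusted p of 0.05, which 0 members passed in limma with all arrays (4 at an unadjusted p under 0.05), and the lowest adjusted p of any member ran from 0.273 to 0.999 over the settings tried. The counts at an unadjusted p under 0.05 moved most. Against 3 higher, there were 6 without HGI 9 and HGI 10, 5 with the scanner's processed signals, 7 without background subtraction, 8 with array weights and 1 with the mean over all tested probes, and 0 to 5 with each array left out in turn. There were 0 without LGI 1 or LGI 6 and 1 without LGI 9, and 5 without HGI 6, HGI 9, LGI 5 or LGI 8. Against 1 lower, there were 0 in the first 8 arrays scanned, with median centring and with the replicate block, 2 with scan group as a covariate, without background subtraction and with array weights, 3 with Cy5 alone, and 1 to 2 with each array left out, 2 without HGI 1, LGI 6, LGI 7, LGI 8 or LGI 9.

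The median over all members was -0.008 in the later 9 arrays, against 0.032. The large-subunit median was 0.062 in the first 8 and 0.061 with median centring, which moved the median of all genes to 0.022, against 0.006. The small-subunit median was 0.084 in the first 8 arrays, against -0.022 in the later 9. The large minus small difference, -0.018, was 0.024 in the later 9, 0.019 in the authors' deposited values, 0.012 over the 14 arrays with shared numbers both with and without the replicate block, and -0.027 to 0.018 with each array left out, so its sign is not settled. Counting Mrps18a and Mrps30, which lie in the large subunit of resolved ribosomes, as large and leaving out Mrps36 (an alternative chosen after seeing the data) gave -0.020.

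Signs turned for single genes: Mrpl15 in the authors' deposited values (-0.12) and with the mean over probes (-0.01), Mrpl9 (0.05), Mrps26 (0.00) and Mrps36 (-0.14) in the authors' deposited values, and Mrpl3 (0.05) and Mrpl11 (-0.04) in the first 8 arrays. In the later 9 arrays they turned for Mrpl44 (0.00), Mrps22 (-0.15), Mrps2 (0.05), Mrps18b (-0.02), Mrps18c (-0.03) and Mrps36 (-0.01). Mrpl44 was 0.01 with median centring and with processed signals, Mrps18b -0.03 and Mrps36 -0.02 with Cy5 alone, and Mrps18a -0.12 without HGI 9 and HGI 10 and -0.04 with array weights. With each array left out, Mrpl11 ran from -0.03 to 0.04, Mrpl44 from -0.05 to 0.02, Mrps18a from -0.03 to 0.09 and Mrps22 from -0.03 to 0.08. The causes were not tested. A fit with the slide as a random block was not run, since each array lies on its own slide.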
